A study of Mus musculus with 16 samples.

Results

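Wild-type mouse whole embryos at embryonic day 7.5 (E7.5) were compared with Wnt1-Cre+ cells that had been sorted by flow cytometry from wild-type embryos at E8.5. The comparison used 5 of the 16 samples of the series, 2 libraries of E7.5 WT (WT1 and WT2) and 3 of E8.5 WT (WT1_5s, WT2 and WT3, the first called WT1 here), all labelled C57BL/6 with the genotype WT. They were chosen by stage and genotype label alone, and the study, titled for miR-302 in neural crest development, also holds miR-302 knockout samples of all 3 stages and wild-type samples of E9.5, which enter no comparison below. E7.5 embryos were frozen whole in Trizol-LS and are labelled as in vivo pluripotency. E8.5 cells went from the sorter into Trizol-LS and are labelled as neural crest before and after migration. Stage, tissue, sorting and library code all change together between the groups (codes starting with 239 at E7.5, and with 163, 169 and 214 at E8.5) and cannot be told apart. Wnt1-Cre is Cre recombinase under regulatory sequence of Wnt1, a signal of the dorsal neural tube, so the Wnt1 gene itself is tied to how the E8.5 cells were picked. Which Cre line and reporter were used, and how many embryos went into a library, is not given in the sources used here.

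At E7.5 the mouse conceptus is gastrulating. Epiblast cells, which still express pluripotency factors, pass through the primitive streak to become mesoderm and definitive endoderm, while visceral endoderm, trophoblast and extraembryonic mesoderm surround them. The neural crest forms a day later at the border between neural plate and surface ectoderm, where Wnt, BMP and FGF signals switch on border factors such as Pax3 and Zic1, then crest specifiers such as Foxd3, Sox9 and Sox10. Crest cells then leave the neural folds by an epithelial to mesenchymal transition and give rise to facial mesenchyme, peripheral neurons, glia and pigment cells.

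Between 5902254 and 9875391 whole reads were recovered per library, and levels are given as CPM (counts per 1000000 reads) scaled over the 5 libraries together. Nothing in the labels says that the libraries of a group came from different animals. The p-values measure only the spread between these libraries, which may in part be technical. Y-linked Ddx3y, given at the end, was far higher in WT1 than in the rest of its group at both stages. WT1 was thus not a repeat of the same sample as the others, while for E8.5 WT2 and WT3 this gives no answer. The replicates were not equally alike. Over genes with at least 20 reads, E8.5 WT1 and WT2 differed by a chi-square of 9.26 per degree of freedom, against 78.7 for WT1 and WT3 and 82.1 for WT2 and WT3, and E7.5 WT1 and WT2 differed by 65.0. E8.5 WT3 thus stood apart from the other 2 libraries of its group. Between the E7.5 libraries, 480 of 12964 tested genes (3.70%) differed by more than 4-fold. So did 14 of 20 uterine and decidual genes, 12 of 18 endothelial genes and 9 of 16 genes listed under extraembryonic mesoderm. The extraembryonic mesoderm list holds Tdo2, which is named among decidual genes below. In a bulk library, fewer cells of a type and less RNA per cell cannot be told apart.

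Of 12964 genes with a mean of at least 1 CPM, 1110 (8.56%) were called higher and 1422 (11.0%) lower in E8.5 WT by limma at a Benjamini-Hochberg adjusted p below 0.05 (two-sided, on log2 of CPM plus 0.25, with ± for the SE of a log2 difference throughout), and the 2 groups did not overlap for any of them. Regardless of the call, E8.5 lay wholly above E7.5 for 3197 genes and wholly below for 3427. Losses were steeper than gains, with 343 genes lower and 84 genes higher by at least 16-fold. A gene near 0 reads in a group passes the minimum of 1 CPM only through the other group, which fixes its direction. The counts of each list below are to be read beside the 8.56% higher and 11.0% lower of all tested genes. The median log2 difference of all tested genes (E8.5 minus E7.5, the direction of every log2 difference below) was -0.02. Higher genes were 43.8% of the calls, and this split followed the scaling, being 24.6% with library totals only, 63.8% on the deposited values and 60.6% after a trend with transcript length and GC content was removed, settings that put the median of all genes at -0.36, 0.31 and 0.17. Leaving out 1 library gave 394 higher and 435 lower genes without E7.5 WT1, 256 and 678 without E7.5 WT2, 529 and 1064 without E8.5 WT1, 455 and 1005 without E8.5 WT2, and 1681 and 2236 without E8.5 WT3. No gene was called in the opposite direction in any of these 5 settings.

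**Figure D1:**
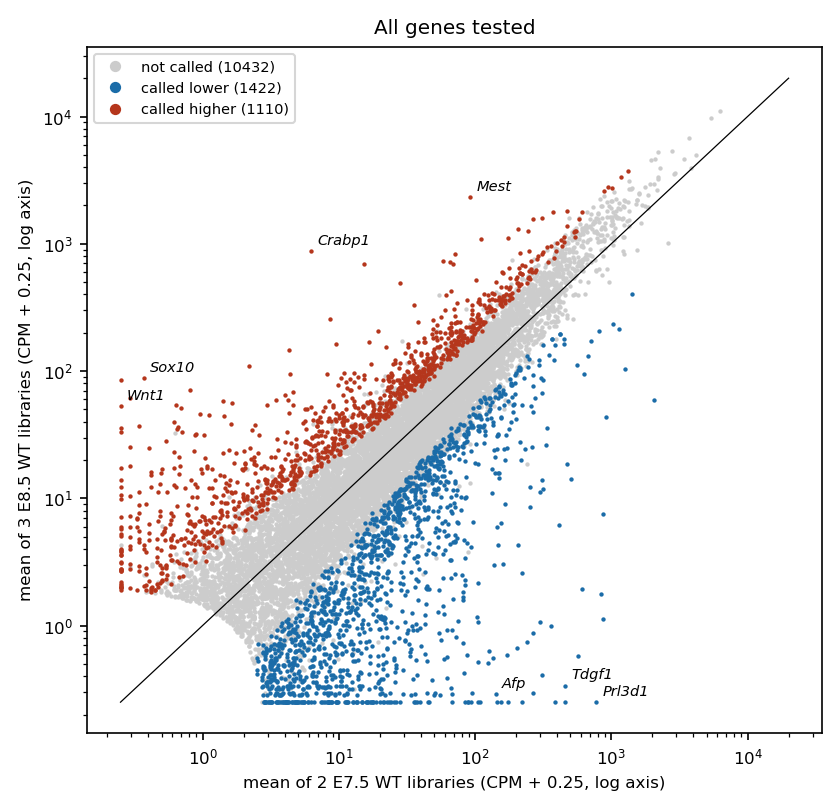
Mean level of each of the 12964 tested genes in the 2 E7.5 WT libraries (horizontal) and in the 3 E8.5 WT libraries (vertical), both as CPM + 0.25 on log axes, with 1110 genes called higher and 1422 called lower in colour. Genes with steep losses (Prl3d1, Tdgf1, Afp) lie along the floor of the plot, and Sox10 and Wnt1 lie along its left edge.

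Called genes with a mean of at least 50 CPM in the group where they are higher were ranked, placeholder symbols left out. A gene may pass that minimum through its higher group alone. The 15 most positive differences included those of Hes3, Sox10, Wnt1, Nr2f1, Crabp1, Lix1, Hes5, Tfap2b, Sox9, Crabp2, Cntfr, Fam212a, Igdcc3 and Mest. Hes3, a bHLH repressor of neural progenitors, had 0 reads in both E7.5 libraries and 84.5, 111 and 59.9 CPM at E8.5, at least 386-fold higher when E7.5 was set at a floor of 3 reads over the group (log2 difference 8.37 ± 0.42, limma adjusted p = 4.9e-05). Where a group has 0 to 3 reads, the fitted log2 difference depends on the 0.25 CPM added, so the bound, or the ratio of pooled reads with its interval for counting error only, is given beside it. Nr2f1, an orphan nuclear receptor of brain and crest, had 0.0894 and 0 CPM at E7.5 and 62.4, 88.1 and 33.0 CPM at E8.5 (log2 difference 7.61 ± 0.51, limma adjusted p = 0.000153, 824-fold higher on pooled reads with a 95% exact interval of 148 to 32570). All 3 E8.5 libraries were far above both E7.5 libraries for these genes. Lix1 had 0.179 and 0.933 CPM at E7.5 and 75.2, 86.6 and 51.5 CPM at E8.5. Cntfr, the receptor for ciliary neurotrophic factor, had 1.88 and 0.933 CPM at E7.5 and 56.0, 50.1 and 61.6 CPM at E8.5. Igdcc3, a cell surface protein of the immunoglobulin superfamily, had 11.8 and 4.82 CPM at E7.5 and 187, 262 and 316 CPM at E8.5. Fam212a had 5.63 and 2.49 CPM at E7.5 and 185, 179 and 74.0 CPM at E8.5. The imprinted gene Mest was the most abundant of the 15 at 74.5 and 109.7 CPM at E7.5 and 2253, 2160.0 and 2575 CPM at E8.5 (log2 difference 4.68 ± 0.31, limma adjusted p = 0.000153).

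The 15 most negative were Prl3d1, Tdgf1, Srgn, Prl3d2, Prl8a2, Adm, Prl3d3, Prss29, A2m, Afp, Rhox5, Mixl1, Ly6a, Tdo2 and Ttr. They are genes of trophoblast giant cells (the Prl3d placental lactogens), decidua and uterine gland (Prl8a2, Prss29, and among others Tdo2, which breaks down tryptophan), visceral endoderm (Afp, Ttr), epiblast (Tdgf1) and primitive streak (Mixl1). Prl3d1 had 1013 and 542 CPM at E7.5 and 0 reads in all 3 E8.5 libraries, at least 9214-fold lower (log2 difference -11.53 ± 0.44, limma adjusted p = 3.78e-05). Prl3d1, Prl3d2 and Prl3d3 are near-identical copies, so reads may have been split among them and the separate values are uncertain. Srgn, the core protein of a granule proteoglycan, had 297 and 239.6 CPM at E7.5 and 0.132, 0 and 0 CPM at E8.5. Adm, the peptide hormone adrenomedullin, had 436 and 188 CPM at E7.5 and 0.264, 0.118 and 0.103 CPM at E8.5. The X-linked homeobox gene Rhox5 had 313 and 408 CPM at E7.5 and 1.45, 0.592 and 0.206 CPM at E8.5. For 5 of the 15 the E7.5 libraries differed from each other by more than 10-fold, among them Ly6a and A2m. Ly6a, a membrane protein also called Sca-1, had 1672 and 73.3 CPM at E7.5 and 1.45, 1.07 and 0.103 CPM at E8.5. A2m, a protease inhibitor, had 1104 and 41.2 CPM at E7.5 and 0.264, 0.711 and 0 CPM at E8.5. Each of these 30 genes was called in the same direction with any 1 library left out.

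Markers of each label were looked up, as a description and no test of the labels, since Wnt1 is among them and is tied to the sort. Of 14 genes chosen as markers of the E8.5 population, 12 were called higher, against 8.56% of all tested genes. Snai2 and Msx1 were not called. Pax7 and Zic1 passed at a few CPM. Foxd3, Tfap2a, Zic1, Ets1 and Twist1 did not keep their calls in every leave-one-out fit. Of 11 markers of the E7.5 embryo, 10 were called lower, against 11.0% of all tested genes, and Otx2 was not called. The 7 embryonic and adult globin genes had 4 reads in all among 43226359, with at most 1 in a library.

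Most pluripotency and epiblast genes were lower. Of 30 listed, 27 were tested, 18 were called lower and 2 higher, with a median log2 difference of -2.41 against -0.02 for all genes, and 9 to 19 were called lower with 1 library left out. Their summed level was 4246 and 3405 CPM at E7.5 and 878, 758 and 1274 CPM at E8.5. Pou5f1, the POU factor that maintains pluripotency, had 249.7 and 193 CPM at E7.5 and 2.77, 1.18 and 3.09 CPM at E8.5 (log2 difference -6.49 ± 0.45, limma adjusted p = 0.000169). Tdgf1, the Nodal co-receptor Cripto, had 369 and 539.9 CPM at E7.5 and 0.264, 0 and 0 CPM at E8.5 (log2 difference -10.46 ± 0.49, limma adjusted p = 4.9e-05, 7090-fold lower on pooled reads with a 95% exact interval of 1962 to 58550). Both E7.5 libraries exceeded every E8.5 library by a wide margin for these genes.

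Other members of the list were lower as well. Fgf5, a growth factor of the postimplantation epiblast, had 87.4 and 187 CPM at E7.5 and 1.72, 2.61 and 3.91 CPM at E8.5 (log2 difference -5.49 ± 0.48, limma adjusted p = 0.000346). Utf1, a chromatin factor of undifferentiated cells, had 141 and 66.0 CPM at E7.5 and 0.264, 1.78 and 0.721 CPM at E8.5 (log2 difference -6.59 ± 0.64, limma adjusted p = 0.000539). Dppa4, a pluripotency-associated nuclear protein, had 22.9 and 19.8 CPM at E7.5 and 0 reads in all 3 E8.5 libraries and was at least 238-fold lower. The de novo DNA methyltransferase Dnmt3b had 1647 and 613 CPM at E7.5 and 160.1, 112 and 374 CPM at E8.5 (log2 difference -2.41 ± 0.58, limma adjusted p = 0.0227). Nanog was a smaller difference at 30.8 and 45.9 CPM at E7.5 and 17.9, 15.3 and 19.1 CPM at E8.5 (log2 difference -1.10 ± 0.33, limma adjusted p = 0.0483), with groups that did not overlap.

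Several factors that epiblast and early neural tissue share did not pass the test. Otx2 had 49.0 and 87.7 CPM at E7.5 and 71.8, 61.2 and 58.2 CPM at E8.5 (log2 difference -0.05 ± 0.32, limma adjusted p = 0.931), with the groups overlapping. Pou3f1, a POU factor of epiblast and neural plate, had 85.8 and 73.9 CPM at E7.5 and 106, 127 and 99.4 CPM at E8.5 (limma adjusted p = 0.242). The RNA-binding protein gene Lin28a had 76.3 and 48.9 CPM at E7.5 and 59.3, 78.2 and 127 CPM at E8.5 (limma adjusted p = 0.419). Foxd3, a regulator of both pluripotent cells and crest, was called higher at 7.33 and 8.87 CPM at E7.5 and 22.3, 16.6 and 19.8 CPM at E8.5 (log2 difference 1.24 ± 0.35, limma adjusted p = 0.0385). So was Trim71, a partner of the Lin28 pathway, at 30.7 and 21.9 CPM at E7.5 and 53.2, 56.9 and 143 CPM at E8.5 (log2 difference 1.53 ± 0.45, limma adjusted p = 0.0482). Their calls and those of 2 lower genes were lost with a library left out, for Foxd3 (without E7.5 WT1, E7.5 WT2, E8.5 WT1 or E8.5 WT2, adjusted p up to 0.163), Trim71 (without E7.5 WT1, E7.5 WT2 or E8.5 WT2, adjusted p up to 0.277), Nanog (without E7.5 WT1, E7.5 WT2, E8.5 WT1 or E8.5 WT2, adjusted p up to 0.186) and Dnmt3b (without E7.5 WT1, E7.5 WT2 or E8.5 WT2, adjusted p up to 0.219).

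Primitive streak and early mesoderm genes were lower in 16 of 27 tested members and higher in 2, with a median of -2.73 (11 to 16 lower and 1 to 3 higher with 1 library left out). Mixl1, a homeobox gene of the streak, had 133.9 and 75.5 CPM at E7.5 and 0 reads in all 3 E8.5 libraries and was at least 1233-fold lower (log2 difference -8.66 ± 0.49, limma adjusted p = 8.65e-05). Eomes, a T-box factor of streak and trophoblast, had 110.4 and 97.5 CPM at E7.5 and 0.396, 0 and 0.412 CPM at E8.5 (log2 difference -7.78 ± 0.56, limma adjusted p = 0.000175). The founding T-box gene T had 22.1 and 14.6 CPM at E7.5 and 0.528, 0 and 0 CPM at E8.5 (log2 difference -5.64 ± 0.66, limma adjusted p = 0.00116). Mesp1, a bHLH factor of the first mesoderm to migrate, had 37.6 and 14.8 CPM at E7.5 and 0 reads in all 3 E8.5 libraries, at least 321-fold lower. Each of these was at or near 0 reads in every E8.5 library and well above it in both E7.5 libraries. In the whole list 5 of the 27 tested had no reads in a group, which fixed their direction. The 2 members called higher, Wnt3a and Hoxb1, are also expressed in dorsal neural tube and hindbrain. Wnt3a had 1.97 and 0.933 CPM at E7.5 and 4.36, 7.94 and 12.1 CPM at E8.5. Hoxb1 had 0.358 and 0.311 CPM at E7.5 and 6.20, 7.34 and 8.65 CPM at E8.5. Fgf8 and Snai1 were among the members that did not pass. Fgf8, a growth factor of streak and isthmus, had 36.7 and 62.1 CPM at E7.5 and 34.7, 63.7 and 41.4 CPM at E8.5. Snai1, a zinc finger repressor of epithelial genes, had 9.75 and 6.38 CPM at E7.5 and 12.5, 14.7 and 8.14 CPM at E8.5. Leaving out 1 library ended the call of Wnt3a (without E7.5 WT1, E7.5 WT2 or E8.5 WT2, adjusted p up to 0.191).

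Node, definitive endoderm and mesoderm markers were mixed. Of 7 tested node and organiser genes, 4 were lower (median -3.72, 3 to 4 lower with 1 library left out). Cer1, a secreted antagonist of Nodal, BMP and Wnt, had 21.9 and 88.4 CPM at E7.5 and 0, 0 and 0.103 CPM at E8.5. Sox17, the HMG-box factor of endoderm, had 75.8 and 60.4 CPM at E7.5 and 2.77, 0.474 and 0.824 CPM at E8.5 (log2 difference -5.67 ± 0.62, limma adjusted p = 0.000874). Foxa2, a forkhead factor of node and endoderm, did not pass at 11.1 and 13.5 CPM at E7.5 and 7.26, 3.91 and 2.47 CPM at E8.5 (limma adjusted p = 0.0715). Definitive endoderm genes were lower in 6 of 14 and higher in 1, Sox2, which is a foregut and neural factor, and 4 to 6 were lower with 1 library left out. Heart and paraxial mesoderm was the list of this set in which more members were higher (5) than lower (3) among 14 tested, with a median of 1.55. Leaving out a library gave 1 to 6 higher and 1 to 3 lower, and E7.5 WT2 was the library without which 1 was higher. Its lower members were the cardiac and endodermal GATA factors Gata4 (106 and 60.7 CPM at E7.5 and 0.396, 0.118 and 0 CPM at E8.5) and Gata6, with Hand2, and its higher ones were Pax8, Mef2c, Foxc1, Tbx1 and Nkx2-5. Pax8, a paired-box factor of isthmus and otic placode as well as kidney, had 0.894 and 1.71 CPM at E7.5 and 23.5, 22.9 and 24.7 CPM at E8.5 (limma adjusted p = 0.000703). Mef2c, which is also a cranial crest factor, had 3.67 and 0.933 CPM at E7.5 and 18.5, 27.2 and 21.2 CPM at E8.5. The cardiac factor Nkx2-5 had 0.268 and 0 CPM at E7.5 and 6.99, 2.13 and 1.44 CPM at E8.5. With a library left out the call was lost for Mef2c (without E7.5 WT2, adjusted p up to 0.0506), Foxc1 (without E7.5 WT2, adjusted p up to 0.0876), Tbx1 (without E7.5 WT1, E7.5 WT2, E8.5 WT1 or E8.5 WT2, adjusted p up to 0.148), Nkx2-5 (without E7.5 WT1, E7.5 WT2 or E8.5 WT1, adjusted p up to 0.192) and Gata6 (without E7.5 WT1 or E7.5 WT2, adjusted p up to 0.0789). Hand2 was too low to test without E7.5 WT1.

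Visceral and parietal endoderm had 31 of 34 tested members lower and a median log2 difference of -5.52 (22 to 31 lower with 1 library left out). Its sum was 5600 and 6051 CPM at E7.5 and 394, 359 and 335 CPM at E8.5. Afp, the fetal serum protein alpha-fetoprotein, had 64.5 and 218 CPM at E7.5 and 0, 0.118 and 0 CPM at E8.5 (log2 difference -8.71 ± 0.61, limma adjusted p = 0.000169, 3962-fold lower on pooled reads with a 95% exact interval of 710 to 156600). The thyroxine carrier Ttr had 109 and 371 CPM at E7.5 and 0.660, 0.829 and 0 CPM at E8.5 (log2 difference -8.33 ± 0.76, limma adjusted p = 0.000403). Apoa1, an apolipoprotein, had 289 and 924 CPM at E7.5 and 2.24, 2.01 and 0.824 CPM at E8.5 (log2 difference -8.15 ± 0.57, limma adjusted p = 0.000169). Hnf4a, the nuclear receptor that drives such genes, had 15.8 and 15.1 CPM at E7.5 and 0 reads in all 3 E8.5 libraries and was at least 170-fold lower. WT2 was higher than WT1 for Afp, Ttr and Apoa1 among the E7.5 libraries, while Hnf4a was level. Dab2, an endocytic adaptor of visceral endoderm, kept more signal in the sorted cells at 499.7 and 440.4 CPM at E7.5 and 16.6, 17.7 and 20.7 CPM at E8.5. The apolipoprotein Apoe had 1226 and 1292 CPM at E7.5 and 137, 90.0 and 82.1 CPM at E8.5. The members not called were Alb, Lrp2 and Dkk1.

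Trophoblast genes were lower in 28 of 29 tested members, with a median of -5.22, or -5.87 with genes at 0 reads in a group set at their bound (15 to 28 lower with 1 library left out). Of 40 listed genes 11 were too low to test. Of the 29 tested, 12 had no reads at E8.5, so they could be tested only through E7.5 and their direction was fixed. Besides the Prl3d genes, Prl7a1 had 100.1 and 34.8 CPM at E7.5 and 0 reads in all 3 E8.5 libraries, at least 836-fold lower. Plac1, a placental membrane protein, had 129.8 and 81.4 CPM at E7.5 and 0.132, 2.01 and 0.309 CPM at E8.5 (log2 difference -7.04 ± 0.74, limma adjusted p = 0.000766). Gata2, a GATA factor of trophoblast, had 59.5 and 48.7 CPM at E7.5 and 2.24, 1.303 and 1.44 CPM at E8.5 (log2 difference -4.85 ± 0.42, limma adjusted p = 0.000316). Hand1, a bHLH factor of giant cells and extraembryonic mesoderm, had 140.3 and 111 CPM at E7.5 and 1.06, 0 and 0.103 CPM at E8.5 (log2 difference -8.01 ± 0.70, limma adjusted p = 0.00035). Krt8 and Krt18, keratins of simple epithelia, fell by smaller amounts than the genes above. Krt8 had 381 and 389.7 CPM at E7.5 and 202, 152 and 129 CPM at E8.5. Krt18 had 397 and 443 CPM at E7.5 and 239.9, 188 and 158 CPM at E8.5, still without overlap between the groups. Wnt7b was the tested member not called. Both keratin calls ended with a library left out, as Krt8 (without E7.5 WT1, E7.5 WT2 or E8.5 WT2, adjusted p up to 0.123) and Krt18 (without E7.5 WT1, E7.5 WT2, E8.5 WT1 or E8.5 WT2, adjusted p up to 0.152).

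Genes of uterine gland and decidua, which are maternal tissues, were detected at E7.5, and 13 of 20 tested were lower at E8.5 (median -4.19, or -4.39 with bounds, and 10 to 12 lower with 1 library left out). They summed to 1681 CPM in WT1 and 2413 CPM in WT2 at E7.5 and to 213, 187 and 147 CPM at E8.5. The E7.5 libraries held different members. Prl8a2, a decidual prolactin, had 878 and 36.4 CPM at E7.5 and 0 reads in all 3 E8.5 libraries (log2 difference -9.49 ± 1.12, limma adjusted p = 0.00122). The gland protease Prss29 had 17.7 and 750.2 CPM at E7.5 and 0 reads in all 3 E8.5 libraries (log2 difference -8.86 ± 1.29, limma adjusted p = 0.00306). The gland protein lactoferrin, Ltf, had 7.15 and 162 CPM at E7.5 and 0 reads in all 3 E8.5 libraries (log2 difference -7.12 ± 1.11, limma adjusted p = 0.00405). Tdo2, which is counted in the extraembryonic mesoderm list and not in this one, had 328 and 22.4 CPM at E7.5 and 0 reads in all 3 E8.5 libraries. Clu, clusterin, had 84.1 and 928 CPM at E7.5 and 16.6, 12.9 and 12.1 CPM at E8.5. WT1 was thus the higher for the decidual genes Prl8a2 and Tdo2 and WT2 for the gland genes Prss29 and Ltf, and at E8.5 Prl8a2, Prss29, Ltf and Tdo2 had no reads. In the uterine and decidual list 6 of the 20 tested had no reads in a group, which fixed their direction. The share of maternal tissue in the other E7.5 differences was not tested.

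**Figure D2:**
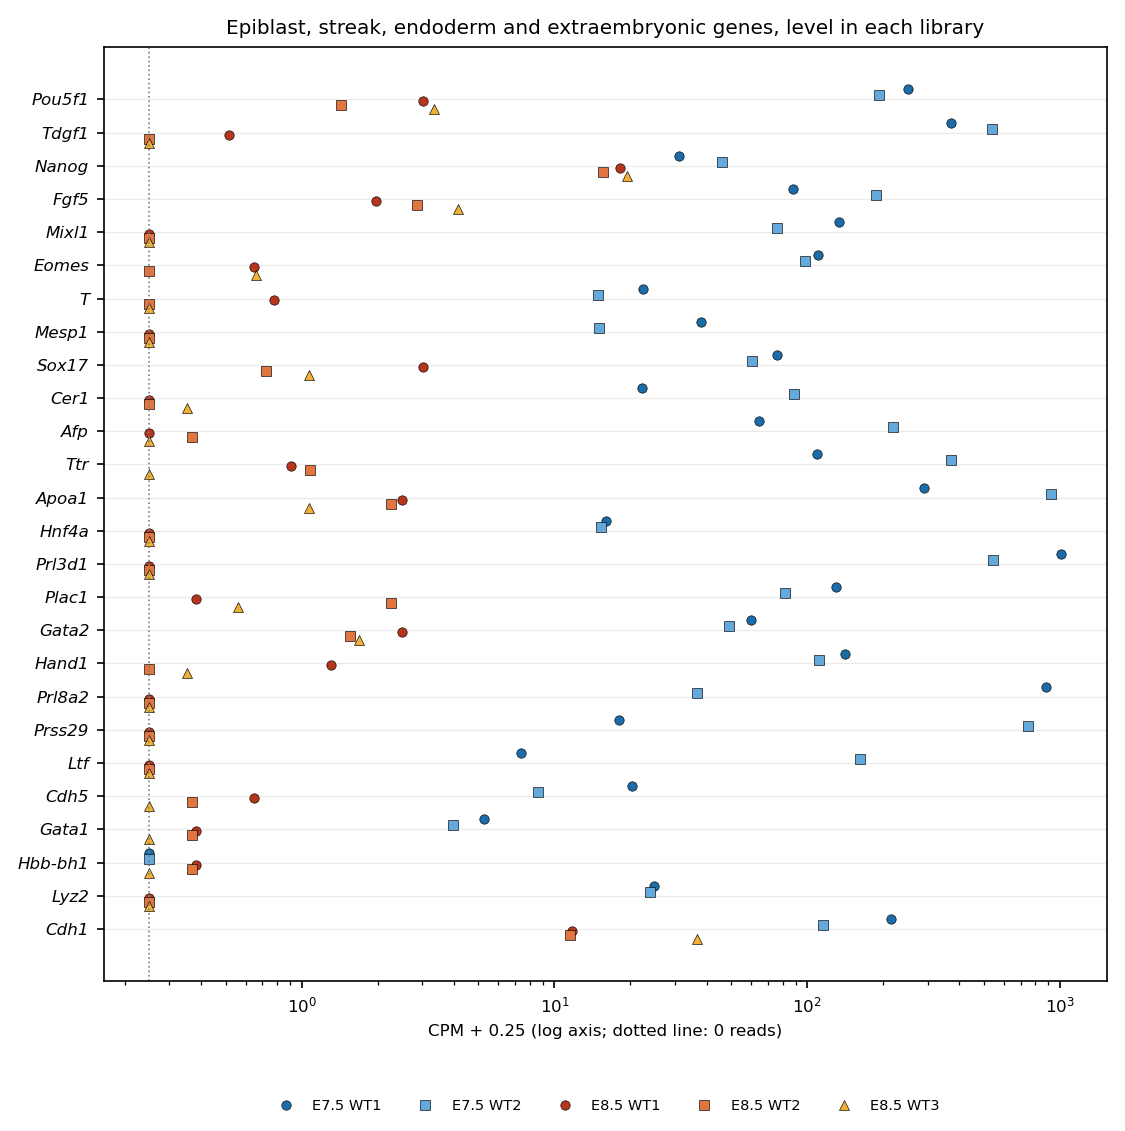
Level of 26 genes of epiblast, streak, endoderm, trophoblast, uterus, blood and endothelium in each library, as CPM + 0.25 on a log axis with 1 point per library and a dotted line at 0 reads. The E8.5 points sit at or near the dotted line for Prl3d1, Mixl1 and Hnf4a, whereas Nanog differs little between stages and Prss29 and Prl8a2 differ widely between the 2 E7.5 libraries.

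Some blood, endothelial and immune genes were lower, in numbers that depended on E7.5 WT1. Of 24 erythroid and 19 myeloid genes listed, 15 and 13 were too low to test. Of 9 tested erythroid genes 6 were lower, and 2 to 6 with 1 library left out. Gata1, the erythroid GATA factor, had 5.01 and 3.73 CPM at E7.5 and 0.132, 0.118 and 0 CPM at E8.5. Alas2, the haem synthesis enzyme, had 5.72 and 12.8 CPM at E7.5 and 0.264, 0.237 and 0.515 CPM at E8.5. Of 18 endothelial genes 5 were lower and 1 higher, with 1 to 5 lower when a library was left out. VE-cadherin, Cdh5, had 20.1 and 8.40 CPM at E7.5 and 0.396, 0.118 and 0 CPM at E8.5 (log2 difference -5.09 ± 0.64, limma adjusted p = 0.00172). Kdr, a VEGF receptor, had 34.8 and 5.91 CPM at E7.5 and 3.43, 0.592 and 4.84 CPM at E8.5 and was not called (limma adjusted p = 0.089). The higher one was Ets1, at 8.23 and 2.49 CPM at E7.5 and 29.2, 30.7 and 89.9 CPM at E8.5, which crest also expresses. Myeloid genes were lower in 4 of 6 tested (1 to 6 with 1 library left out), including lysozyme, Lyz2, at 24.5 and 23.6 CPM at E7.5 and 0 reads in all 3 E8.5 libraries. In extraembryonic mesoderm 8 of 16 were lower (3 to 8 with 1 library left out) and 1 higher, and WT1 led WT2 in the posterior homeobox gene Hoxa10 (30.8 and 3.89 CPM at E7.5 and 0 reads in all 3 E8.5 libraries). Without E7.5 WT1 the lower counts of these 4 lists were 2, 1, 1 and 3. The extraembryonic mesoderm list holds Tdo2, given above with the decidual genes, and Hoxa10 and Hoxa11, which uterus also expresses. How much of its count came from maternal tissue was not tested. Of 7 germ cell genes only Tfap2c was lower, at 115 and 94.4 CPM at E7.5 and 10.8, 20.3 and 23.5 CPM at E8.5. Tfap2c is also a trophoblast and surface ectoderm factor. Leaving out 1 library ended the call of Ets1 (without E7.5 WT1 or E7.5 WT2, adjusted p up to 0.15) and Tfap2c (without E7.5 WT1 or E7.5 WT2, adjusted p up to 0.0738). Gata1 was too low to test without E7.5 WT1.

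**Figure D3:**
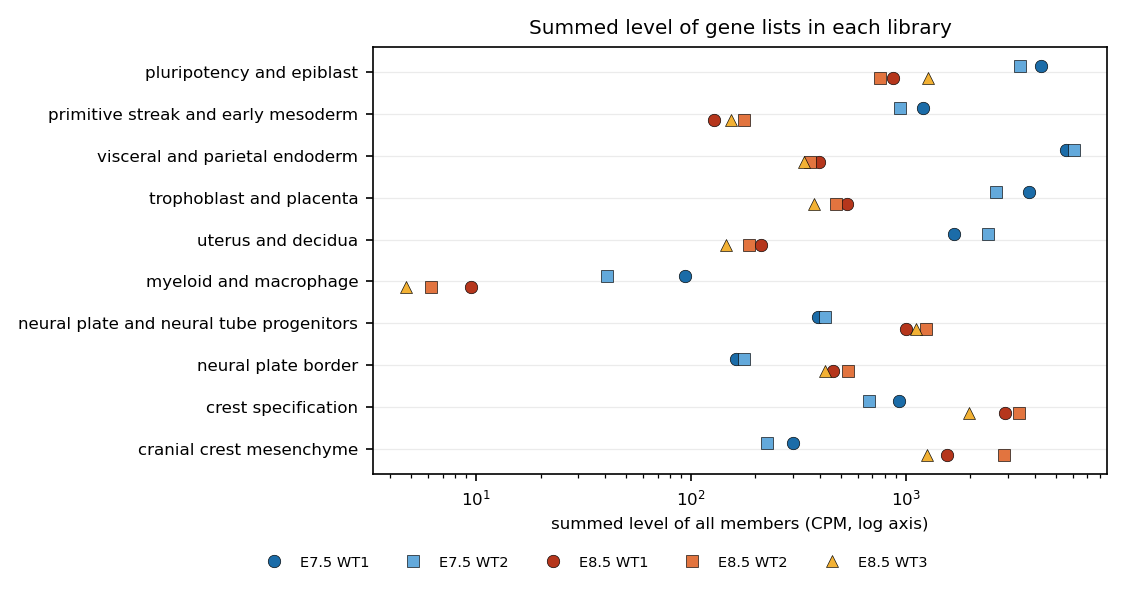
Summed level of all members of 10 gene lists in each library, in CPM on a log axis, with the 2 E7.5 WT libraries above and the 3 E8.5 WT libraries below each line. The sums of the first 6 lists (epiblast to myeloid) are lower in all 3 E8.5 libraries, from 4246 and 3405 CPM to 758 to 1274 CPM for pluripotency genes, and those of the 4 neural and crest lists are higher.

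Border genes were higher in 14 of 22 tested members and lower in 1, with a median log2 difference of 2.49, or 2.63 with bounds (9 to 14 higher with 1 library left out). Wnt1, on mouse build mm10 at chromosome 15, 98789857 to 98793837, plus strand, had 0 reads in both E7.5 libraries and 49.0, 52.4 and 57.0 CPM at E8.5, at least 244-fold higher, a value that the sort on Wnt1-Cre bears on directly. Pax3, the paired-box factor of border and dorsal neural tube, had 0 reads in both E7.5 libraries and 33.9, 37.0 and 34.6 CPM at E8.5, at least 162-fold higher (log2 difference 7.15 ± 0.41, limma adjusted p = 8.65e-05). Its relative Pax7 was far weaker at 0 reads in both E7.5 libraries and 1.45, 1.66 and 2.37 CPM at E8.5, at least 8.58-fold higher. Zic1, a zinc finger factor of the border, had 0 reads in both E7.5 libraries and 0.924, 3.67 and 0.721 CPM at E8.5. Tfap2b, an AP-2 factor of border and crest, had 0.268 and 0.622 CPM at E7.5 and 56.4, 64.9 and 31.0 CPM at E8.5 (log2 difference 6.18 ± 0.47, limma adjusted p = 0.000218). Tfap2a had 1.43 and 0.933 CPM at E7.5 and 5.81, 6.63 and 4.94 CPM at E8.5 (log2 difference 2.09 ± 0.46, limma adjusted p = 0.0167). The dorsal signals Wnt8b and Bmp5 were higher too. Wnt8b had 0 reads in both E7.5 libraries and 9.37, 23.1 and 18.3 CPM at E8.5. Bmp5 had 0.179 and 0 CPM at E7.5 and 8.97, 6.99 and 17.0 CPM at E8.5. All 3 E8.5 libraries were above both E7.5 libraries for each of these genes. Of the 22 tested, 6 had no reads in a group, so they could be tested only through the other group and their direction was fixed.

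Several border genes that the whole embryo already expressed did not pass. Msx1, a homeobox target of BMP, had 14.2 and 14.3 CPM at E7.5 and 18.7, 37.4 and 28.8 CPM at E8.5 (limma adjusted p = 0.116). Hes1 had 32.2 and 58.3 CPM at E7.5 and 134.1, 130.4 and 52.3 CPM at E8.5 (limma adjusted p = 0.116). Zic5 was the lower member, at 36.1 and 52.3 CPM at E7.5 and 8.45, 13.2 and 23.5 CPM at E8.5. With a library left out the call was lost for Zic1 (without E7.5 WT1, E7.5 WT2 or E8.5 WT1, adjusted p up to 0.174), Tfap2a (without E7.5 WT1, E7.5 WT2, E8.5 WT1 or E8.5 WT2, adjusted p up to 0.0927) and Zic5 (without E7.5 WT1, E7.5 WT2, E8.5 WT1 or E8.5 WT2, adjusted p up to 0.24). Pax7 was too low to test without E8.5 WT2 or WT3, as was Zic1 without E8.5 WT2.

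Crest specification genes were higher in 14 of 25 tested and lower in 1 (median 1.30, 7 to 16 higher with 1 library left out). Sox10, the SoxE factor of migrating crest and its glia, had 0.0894 and 0.156 CPM at E7.5 and 99.1, 93.8 and 69.7 CPM at E8.5 (log2 difference 7.87 ± 0.38, limma adjusted p = 4.9e-05, 595-fold higher on pooled reads with a 95% exact interval of 164 to 4917), 1 read in each E7.5 library. Sox9, the SoxE factor of premigratory crest, had 1.52 and 2.33 CPM at E7.5 and 109, 77.0 and 144 CPM at E8.5 (log2 difference 5.64 ± 0.38, limma adjusted p = 0.000153). Sox5, a SoxD partner of these factors, had 0.626 and 0.156 CPM at E7.5 and 11.2, 9.71 and 15.1 CPM at E8.5. Lmo4, a LIM-only adaptor, had 12.7 and 10.9 CPM at E7.5 and 94.6, 107 and 57.9 CPM at E8.5. The BMP target Id3 was abundant at 197 and 154 CPM at E7.5 and 1256, 1488 and 563 CPM at E8.5. E8.5 WT3 was the lowest of its group for Sox10, Lmo4 and Id3 and the highest for Sox9, Sox5 and Ets1, and all were above E7.5 in each library.

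Of the specifiers that did not pass, Snai2, the crest Snail factor of chick, had 3.04 and 0.622 CPM at E7.5 and 2.11, 3.08 and 1.75 CPM at E8.5 (log2 difference 0.56 ± 0.66, limma adjusted p = 0.566). Myc, a growth regulator of the border, had 116 and 81.5 CPM at E7.5 and 90.8, 117 and 79.2 CPM at E8.5 (log2 difference -0.05 ± 0.30, limma adjusted p = 0.925). Chd7, a chromatin remodeller, was called higher by a small amount at 74.9 and 77.0 CPM at E7.5 and 146, 144 and 279.7 CPM at E8.5 (log2 difference 1.25 ± 0.35, limma adjusted p = 0.0396). The lower member was Myb, a factor of blood progenitors, at 8.94 and 9.49 CPM at E7.5 and 1.06, 1.42 and 3.40 CPM at E8.5. The call did not hold in every leave-one-out fit for Lmo4 (without E7.5 WT2, adjusted p up to 0.06), Id3 (without E7.5 WT1 or E7.5 WT2, adjusted p up to 0.14), Chd7 (without E7.5 WT1, E7.5 WT2, E8.5 WT1 or E8.5 WT2, adjusted p up to 0.19) and Myb (without E7.5 WT1, E7.5 WT2, E8.5 WT1 or E8.5 WT2, adjusted p up to 0.141).

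**Figure D4:**
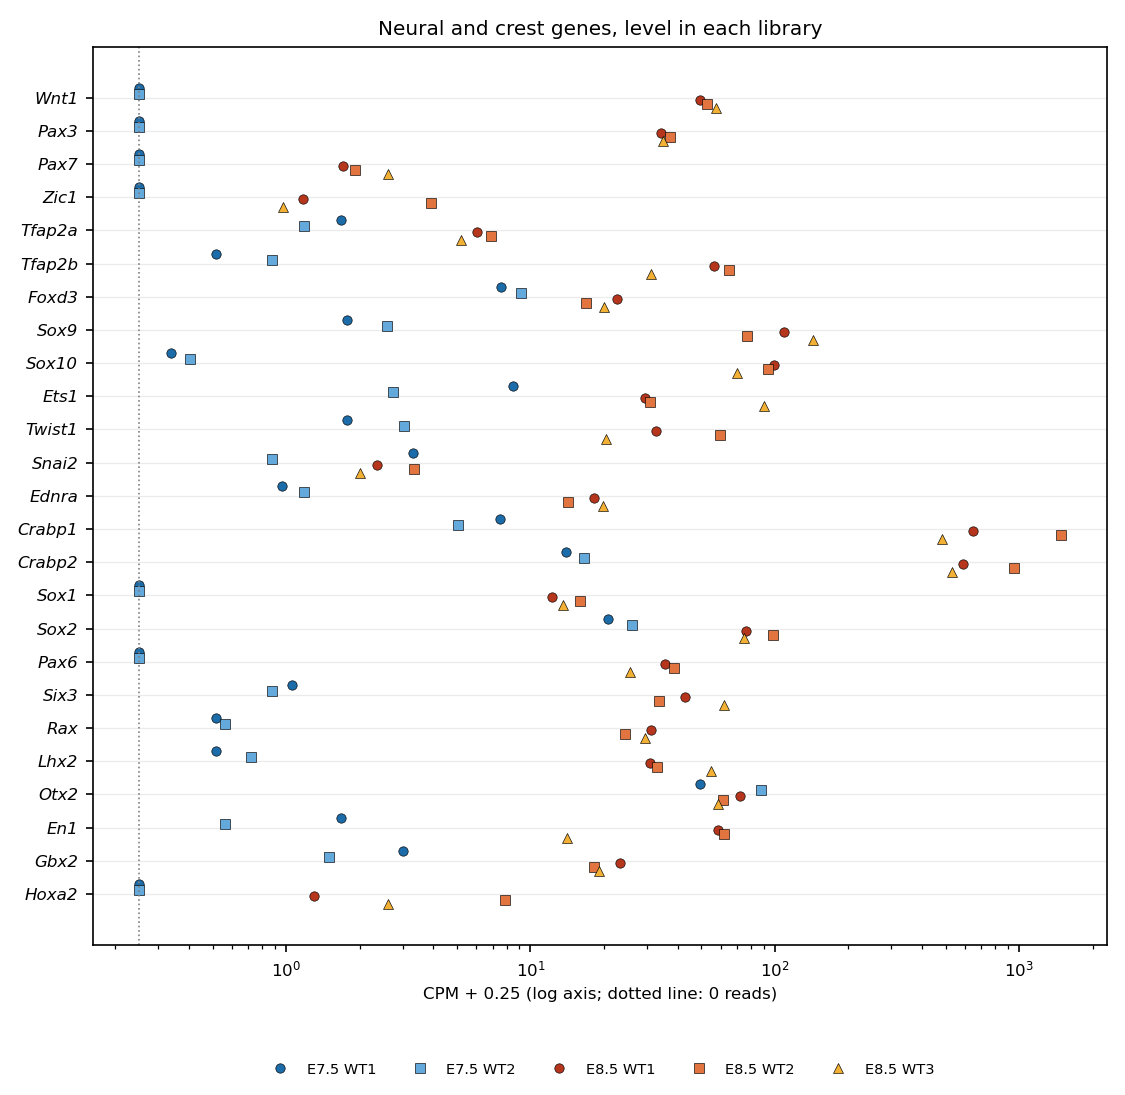
Level of 25 border, crest, neural plate and brain genes in each library, as CPM + 0.25 on a log axis with 1 point per library and a dotted line at 0 reads. Wnt1, Pax3, Pax6 and Sox1 have no reads in either E7.5 library, and Snai2 and Otx2 show overlapping groups.

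Of 45 tested delamination and migration genes, 10 were higher and 4 lower, with a median of 0.67 (2 to 10 higher with 1 library left out). The lower share was near the 11.0% of all genes. Cdh1, E-cadherin of epithelia, had 215 and 115 CPM at E7.5 and 11.5, 11.3 and 36.3 CPM at E8.5 (log2 difference -3.21 ± 0.54, limma adjusted p = 0.00573). Cdh6, a cadherin of premigratory crest, had 2.68 and 2.02 CPM at E7.5 and 23.1, 31.9 and 38.5 CPM at E8.5 (log2 difference 3.57 ± 0.39, limma adjusted p = 0.000865). Cdh2, N-cadherin of neural plate, had 33.1 and 18.5 CPM at E7.5 and 75.6, 101 and 187 CPM at E8.5 (log2 difference 2.17 ± 0.43, limma adjusted p = 0.0115). The groups did not overlap for any of these 3 cadherins. Twist1, a bHLH factor of cranial mesenchyme and of epithelial to mesenchymal transition, had 1.52 and 2.80 CPM at E7.5 and 32.3, 59.6 and 20.2 CPM at E8.5 (log2 difference 3.88 ± 0.52, limma adjusted p = 0.00213). Ednra, the endothelin receptor of cranial crest, had 0.715 and 0.933 CPM at E7.5 and 17.9, 14.0 and 19.5 CPM at E8.5 (log2 difference 4.01 ± 0.42, limma adjusted p = 0.000731). Ednrb, the receptor of trunk crest and melanocyte precursors, overlapped between the groups at 14.4 and 1.56 CPM at E7.5 and 18.1, 14.3 and 17.1 CPM at E8.5 (limma adjusted p = 0.151). The metalloprotease Adam19 was lower at 64.6 and 11.4 CPM at E7.5 and 0.528, 1.78 and 1.75 CPM at E8.5. The matrix protease Mmp2 was higher at 12.5 and 7.16 CPM at E7.5 and 35.4, 46.7 and 53.4 CPM at E8.5. E8.5 WT3 was below the mean of WT1 and WT2 in only 7 of these 45 genes. The calls of Cdh1, Cdh2 and Twist1 were lost without E7.5 WT1 or E7.5 WT2, that of Adam19 without E7.5 WT1 and that of Mmp2 without E7.5 WT2. Without E7.5 WT1 and without E7.5 WT2, the log2 difference was -2.76 and -3.69 for Cdh1, 2.59 and 1.73 for Cdh2, and 3.48 and 4.24 for Twist1. It was -2.97 for Adam19 and 1.78 for Mmp2 in the fits that lost their calls. Each of these fits leaves 1 E7.5 library, so the loss cannot be told apart from the smaller group.

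Genes of cranial crest mesenchyme were higher in 10 of 22 tested and lower in 2, Hand1 and Hand2, with a median of 1.77. With 1 library left out 5 to 10 were higher, and the 5 were without E7.5 WT2. Their sum went from 299 and 226 CPM at E7.5 to 1562, 2881 and 1262 CPM at E8.5. Most of it came from the retinoic acid binding proteins. Crabp1 had 7.24 and 4.82 CPM at E7.5 and 644, 1482 and 482 CPM at E8.5 (log2 difference 6.97 ± 0.47, limma adjusted p = 0.000153). Crabp2 had 13.8 and 16.3 CPM at E7.5 and 588, 954 and 529 CPM at E8.5 (log2 difference 5.45 ± 0.33, limma adjusted p = 0.000115). Dlx2, a homeobox factor of the pharyngeal arches, had 0.0894 and 0 CPM at E7.5 and 17.3, 43.7 and 14.1 CPM at E8.5 (log2 difference 6.26 ± 0.58, limma adjusted p = 0.000446, 342-fold higher on pooled reads with a 95% exact interval of 61.1 to 13510). Foxd1, a forkhead factor of facial mesenchyme, had 0.0894 and 0 CPM at E7.5 and 20.6, 11.1 and 21.6 CPM at E8.5. Alx1, a homeobox gene of frontonasal mesenchyme, had 0.0894 and 1.24 CPM at E7.5 and 8.31, 24.4 and 3.19 CPM at E8.5. E8.5 WT2 was the highest library for Crabp1, Crabp2, Dlx2 and Alx1. The homeobox gene Prrx2 had 14.0 and 1.71 CPM at E7.5 and 97.8, 127 and 60.9 CPM at E8.5. Leaving out 1 library ended the call of Alx1 (without E7.5 WT1, E7.5 WT2 or E8.5 WT2, adjusted p up to 0.241) and Prrx2 (without E7.5 WT2, adjusted p up to 0.0724).

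Neural plate and neural tube progenitor genes were higher in 22 of 34 tested, with 3 lower and a median of 2.28 (15 to 21 higher with 1 library left out). Pax6, a paired-box factor of forebrain, eye and ventral neural tube, had 0 reads in both E7.5 libraries and 35.4, 38.3 and 25.2 CPM at E8.5, at least 149-fold higher (log2 difference 7.03 ± 0.44, limma adjusted p = 0.00013). Forebrain and eye field factors were higher as well. Six3 had 0.805 and 0.622 CPM at E7.5 and 42.6, 33.4 and 61.9 CPM at E8.5. Rax had 0.268 and 0.311 CPM at E7.5 and 30.7, 24.0 and 29.2 CPM at E8.5. Lhx2 had 0.268 and 0.467 CPM at E7.5 and 30.5, 32.7 and 54.6 CPM at E8.5. For each of these the E7.5 libraries were below 1 CPM and all 3 E8.5 libraries well above. Pax6, Six3, Rax and Lhx2 are not among the E8.5 markers looked up above, yet their E8.5 levels were of the order of that of Pax3. Which of the sorted cells expressed them was not tested. The SoxB factor Sox1, of committed neural cells, had 0 reads in both E7.5 libraries and 12.01, 15.6 and 13.4 CPM at E8.5, at least 63.1-fold higher. Sox2, which epiblast also expresses, had 20.6 and 25.7 CPM at E7.5 and 76.3, 97.9 and 74.5 CPM at E8.5 (log2 difference 1.83 ± 0.29, limma adjusted p = 0.00417). Sox3 had 10.3 and 6.22 CPM at E7.5 and 44.7, 68.2 and 61.6 CPM at E8.5. The E7.5 libraries had no reads of Pax6 and Sox1 and a lower level of Sox2 that did not overlap with E8.5. Among the 3 lower members were Zic5 and the Notch ligand Dll3. No reads were found in a group for 7 of the 34 tested, which fixed their direction.

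Midbrain and hindbrain patterning genes were higher in 17 of 29 tested (median 2.28, 11 to 17 higher with 1 library left out). En1, a homeobox factor of midbrain and isthmus, had 1.43 and 0.311 CPM at E7.5 and 58.1, 61.8 and 13.8 CPM at E8.5 (log2 difference 5.25 ± 0.74, limma adjusted p = 0.0027), with WT3 below the rest of its group. Its paralogue En2 had 0.805 and 0.467 CPM at E7.5 and 15.8, 41.0 and 37.3 CPM at E8.5 and showed another order, with WT1 lowest. Otx1, of forebrain and midbrain, had 1.07 and 0.467 CPM at E7.5 and 33.5, 27.1 and 33.6 CPM at E8.5 (log2 difference 5.02 ± 0.43, limma adjusted p = 0.000313). Otx2, expressed across the anterior epiblast too, overlapped between the groups as given above. Gbx2, on the hindbrain side of the isthmus, had 2.77 and 1.24 CPM at E7.5 and 23.1, 18.0 and 18.7 CPM at E8.5 (log2 difference 3.24 ± 0.44, limma adjusted p = 0.00231). The isthmic growth factor Fgf17 had 0.536 and 0.933 CPM at E7.5 and 10.3, 24.2 and 12.5 CPM at E8.5. Egr2, a hindbrain segment gene, had 0.268 and 0.311 CPM at E7.5 and 0.396, 3.91 and 0.309 CPM at E8.5 and was not called. E8.5 WT2 was the highest of its group for Egr2 and Hoxa2. In this list 4 of the 29 tested had no reads in a group, which fixed their direction. With a library left out the call was lost for En1 (without E7.5 WT2, adjusted p up to 0.1).

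Of 39 Hox genes, 31 were too low to test. Hoxa2, of the second rhombomere and arch, had 0 reads in both E7.5 libraries and 1.06, 7.58 and 2.37 CPM at E8.5 and was at least 17-fold higher. Hoxb1 was higher as given above, and Hoxb2 had 1.43 and 0.778 CPM at E7.5 and 2.90, 8.29 and 3.502 CPM at E8.5 (limma adjusted p = 0.0626). The 5 lower members were posterior genes, Hoxa9, Hoxa10, Hoxa11, Hoxd10 and Hoxd11, which allantois and uterus express, and all had no reads at E8.5. WT1 exceeded WT2 in all 5 at E7.5, as in Hoxa11 with 16.5 and 2.02 CPM at E7.5 and 0 reads in all 3 E8.5 libraries. Without E7.5 WT1, all 5 were below the minimum of 1 CPM for a test. The call also changed with the libraries used for Hoxa2 (without E7.5 WT1 or E7.5 WT2, adjusted p up to 0.146) and Hoxa9 (without E8.5 WT1, E8.5 WT2 or E8.5 WT3, adjusted p up to 0.0611).

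Some genes of the crest's derivatives were also higher. Of 21 tested neuronal, glial and pigment genes, 9 were higher and 5 lower, and leaving out 1 library gave 5 to 10 higher and 2 to 5 lower. Gap43, a growth cone protein, had 2.68 and 2.80 CPM at E7.5 and 69.9, 67.3 and 23.4 CPM at E8.5. Tubb3, a neuronal tubulin, had 10.5 and 4.98 CPM at E7.5 and 56.6, 37.9 and 61.7 CPM at E8.5. Nefl, a neurofilament subunit, was lower at 80.4 and 88.5 CPM at E7.5 and 6.99, 9.36 and 12.9 CPM at E8.5. Pou4f1, a sensory neuron factor, was higher at 0.268 and 0.156 CPM at E7.5 and 2.11, 3.32 and 3.30 CPM at E8.5. Surface ectoderm and placode genes split, with 5 of 19 higher and 8 lower and a median of -0.14. The higher ones were placode factors, and the lower ones were mostly epithelial genes. Dlx5, a homeobox factor of placode and border, had 0.0894 and 0.778 CPM at E7.5 and 22.7, 17.7 and 13.1 CPM at E8.5. The keratin Krt19 had 156 and 175 CPM at E7.5 and 8.05, 14.1 and 4.22 CPM at E8.5. The adhesion molecule Epcam had 228 and 364 CPM at E7.5 and 148, 88.4 and 97.5 CPM at E8.5. A library left out gave 3 to 5 higher and 0 to 8 lower members, 0 without E7.5 WT2 and 1 without E7.5 WT1, and it ended the call of Gap43 (without E7.5 WT1 or E7.5 WT2, adjusted p up to 0.0755), Krt19 (without E7.5 WT2, adjusted p up to 0.0638) and Epcam (without E7.5 WT1, E7.5 WT2 or E8.5 WT2, adjusted p up to 0.169).

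**Figure D5:**
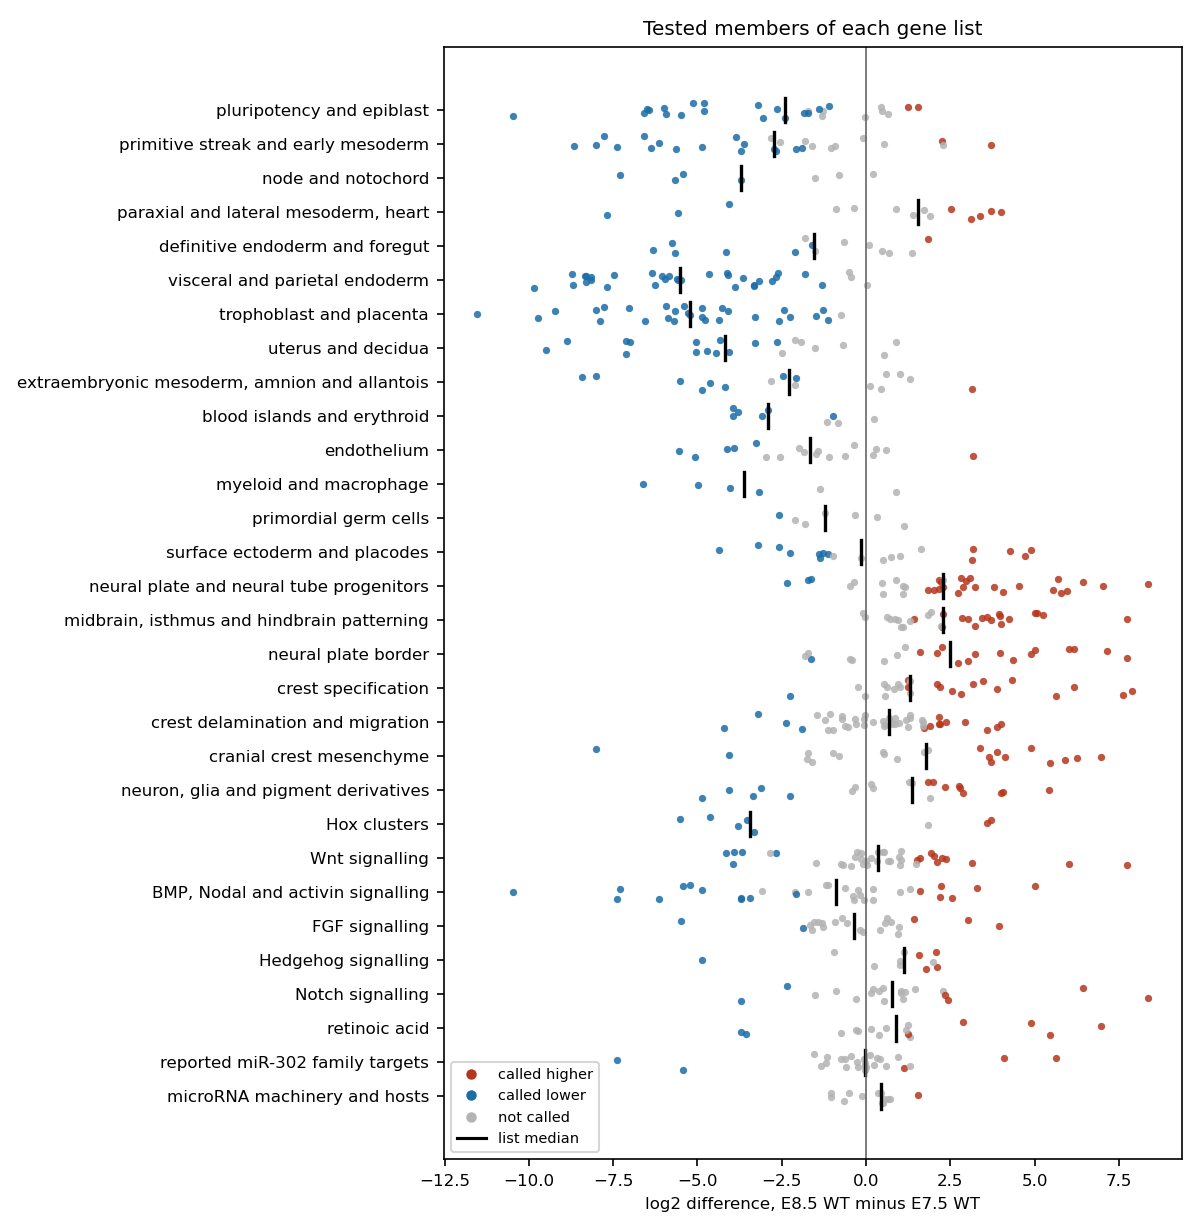
Log2 difference (E8.5 WT minus E7.5 WT) of each tested member of the lineage, neural, signalling and microRNA lists, 1 row per list and 1 point per gene, coloured by call, with a black bar at each list's median. The fitted medians run from -5.52 for visceral and parietal endoderm to 2.49 for the neural plate border.

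Among 39 tested Wnt pathway genes 10 were higher and 5 lower, the lower share being near the 11.0% of all genes. With 1 library left out 3 to 9 were higher and 1 to 5 lower, and without E7.5 WT2 these were 3 and 1. Besides Wnt1, Wnt3a and Wnt8b, the receptor Fzd2 had 37.0 and 27.2 CPM at E7.5 and 163, 168 and 159.9 CPM at E8.5 (log2 difference 2.35 ± 0.27, limma adjusted p = 0.0011). Sfrp2, a secreted Wnt binding protein, had 13.6 and 6.53 CPM at E7.5 and 66.2, 123 and 75.6 CPM at E8.5. Wnt11, a ligand of noncanonical signalling, had 21.1 and 12.4 CPM at E7.5 and 0.528, 0.592 and 0.927 CPM at E8.5. Wnt3, the ligand of the streak, had 17.3 and 13.8 CPM at E7.5 and 1.85, 3.32 and 1.75 CPM at E8.5. Neither overlapped between the groups. Axin2, a feedback target of beta-catenin, was higher at 5.28 and 3.27 CPM at E7.5 and 14.3, 14.8 and 10.8 CPM at E8.5. Ctnnb1, beta-catenin itself, had 592 and 434 CPM at E7.5 and 653, 610.5 and 661 CPM at E8.5 (limma adjusted p = 0.439). Lef1, its DNA-binding partner, had 48.5 and 20.2 CPM at E7.5 and 60.6, 63.9 and 60.7 CPM at E8.5 (limma adjusted p = 0.11). The call did not hold in every leave-one-out fit for Sfrp2 (without E7.5 WT2, adjusted p up to 0.0599), Wnt3 (without E7.5 WT1 or E7.5 WT2, adjusted p up to 0.0738) and Axin2 (without E7.5 WT1, E7.5 WT2, E8.5 WT1 or E8.5 WT2, adjusted p up to 0.162).

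In the BMP, Nodal and activin list, 6 of 32 tested genes were higher and 11 lower (median -0.89, and 2 to 7 higher and 9 to 12 lower with 1 library left out, 2 being without E7.5 WT1). The lower ones took in the Nodal branch. Nodal, the ligand of streak and mesendoderm, had 20.4 and 14.8 CPM at E7.5 and 0 reads in all 3 E8.5 libraries, at least 201-fold lower (log2 difference -6.14 ± 0.51, limma adjusted p = 0.000295). Its feedback inhibitor Lefty2 had 62.8 and 27.5 CPM at E7.5 and 0 reads in all 3 E8.5 libraries, at least 546-fold lower. The co-receptor Cfc1 had 18.5 and 25.8 CPM at E7.5 and 0.924, 0.237 and 0.103 CPM at E8.5. Bmp4, the BMP of extraembryonic ectoderm and mesoderm, was lower at 26.9 and 17.4 CPM at E7.5 and 7.26, 4.74 and 3.40 CPM at E8.5 (log2 difference -2.09 ± 0.45, limma adjusted p = 0.0154). Bmp5 and Bmp7 were higher, Bmp7 at 12.9 and 9.02 CPM at E7.5 and 31.1, 27.5 and 43.7 CPM at E8.5. Fst, follistatin, an inhibitor of activin, had 302 and 359 CPM at E7.5 and 23.9, 37.1 and 17.4 CPM at E8.5. The calls of Bmp4 and Bmp7 were lost without E7.5 WT1 or E7.5 WT2, fits that leave 1 E7.5 library. The log2 difference without each was -1.776 and -2.425 for Bmp4 and 1.86 and 1.332 for Bmp7. The loss cannot be told apart from the smaller group.

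FGF genes gave 3 higher and 2 lower of 22, shares near the 8.56% and 11.0% of all genes, and 2 to 4 higher and 1 to 4 lower with 1 library left out. The isthmic Fgf17 and Fgf18 (0.626 and 1.71 against 11.0, 10.1 and 10.2 CPM for Fgf18, E7.5 against E8.5) and the pathway inhibitor Spry1 were higher, and Fgf5 and Fgfr4 were lower. The call was lost for Spry1 (without E7.5 WT1, E7.5 WT2 or E8.5 WT2, adjusted p up to 0.132) and Fgfr4 (without E7.5 WT1, E7.5 WT2, E8.5 WT2 or E8.5 WT3, adjusted p up to 0.19). Fgf15, a ligand of neural tube, had 23.5 and 41.9 CPM at E7.5 and 72.8, 74.8 and 40.2 CPM at E8.5 and was not called (limma adjusted p = 0.127). Of 11 Hedgehog genes 4 were higher (0 to 3 with 1 library left out) and 1 lower. The lower one was Ihh, the ligand of visceral endoderm, at 11.0 and 7.47 CPM at E7.5 and 0.264, 0 and 0 CPM at E8.5. The higher ones were the effectors Gli2 and Gli3 with the co-receptors Cdon and Gas1. Gli3 had 13.4 and 8.71 CPM at E7.5 and 32.9, 40.2 and 77.0 CPM at E8.5. None of the 4 Hedgehog calls upward held with every library left out in turn, as for Gli3 (without E7.5 WT1 or E7.5 WT2, adjusted p up to 0.139), Gli2 (without E7.5 WT2, E8.5 WT1, E8.5 WT2 or E8.5 WT3, adjusted p up to 0.196), Cdon (without E7.5 WT1, E7.5 WT2, E8.5 WT1 or E8.5 WT2, adjusted p up to 0.128) and Gas1 (without E7.5 WT2, E8.5 WT2 or E8.5 WT3, adjusted p up to 0.235).

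Retinoic acid genes were higher in 5 of 16 and lower in 2 (3 to 5 higher and 0 to 2 lower with 1 library left out). The lower share was near the 11.0% of all genes. The synthesis enzyme Aldh1a3, of eye and surface ectoderm, had 0 and 0.467 CPM at E7.5 and 11.7, 17.2 and 8.96 CPM at E8.5 (log2 difference 4.88 ± 0.59, limma adjusted p = 0.00144). Aldh1a2, of mesoderm, had 2.24 and 2.02 CPM at E7.5 and 14.3, 9.003 and 39.1 CPM at E8.5, with WT3 highest. Cyp26a1, which degrades retinoic acid, had 97.5 and 167 CPM at E7.5 and 18.6, 6.04 and 7.42 CPM at E8.5 (log2 difference -3.72 ± 0.50, limma adjusted p = 0.00229). Leaving out 1 library ended the call of Aldh1a2 (without E7.5 WT1 or E7.5 WT2, adjusted p up to 0.152) and Cyp26a1 (without E7.5 WT1 or E7.5 WT2, adjusted p up to 0.0879).

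Notch genes were higher in 4 of 20 and lower in 2 (2 to 4 higher and 0 to 2 lower with 1 library left out). The higher ones were the transcriptional repressors Hes3, Hes5 and Hey2 and the glycosyltransferase Lfng. The lower ones, a share near the 11.0% of all genes, were the ligands Dll3 and Dll4. Dll4, which is endothelial, had 5.28 and 1.71 CPM at E7.5 and 0 reads in all 3 E8.5 libraries. Hes5, a Notch target of neural progenitors at chromosome 4, 154960923 to 154962371, plus strand in mm10, had 0.626 and 0.156 CPM at E7.5 and 39.5, 81.4 and 40.8 CPM at E8.5 (log2 difference 6.42 ± 0.51, limma adjusted p = 0.000243). The receptor Notch1 had 4.11 and 0.778 CPM at E7.5 and 2.77, 5.45 and 5.15 CPM at E8.5 and was not called. Of the 6 calls, 3 did not hold in every such fit, Hey2 (without E7.5 WT1, E7.5 WT2, E8.5 WT1 or E8.5 WT2, adjusted p up to 0.137), Lfng (without E7.5 WT2, E8.5 WT1, E8.5 WT2 or E8.5 WT3, adjusted p up to 0.172) and Dll3 (without E7.5 WT1, E7.5 WT2, E8.5 WT1 or E8.5 WT3, adjusted p up to 0.242). Without E7.5 WT1, Dll4 was below the minimum of 1 CPM for a test. The promoter of Hes5 is shown because it is the textbook Notch target among the 30 genes, read from RefSeq (build GRCm38.p6) at chr4:154960673-154960972, plus strand, from 250 bases before to 50 after the start, with capitals marking TGGGAA (the RBPJ core) and ACAAAG (a SOX and TCF type motif) on either strand.
Hes5 promoter: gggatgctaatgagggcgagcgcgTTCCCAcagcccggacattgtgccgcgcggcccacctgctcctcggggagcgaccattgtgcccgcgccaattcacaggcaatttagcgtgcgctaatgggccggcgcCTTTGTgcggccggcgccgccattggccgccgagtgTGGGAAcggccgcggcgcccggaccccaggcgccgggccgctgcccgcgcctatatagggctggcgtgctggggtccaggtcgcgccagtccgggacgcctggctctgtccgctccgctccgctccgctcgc
TGGGAA was found in sense at position -82 and in antisense at -226 (as TTCCCA), and ACAAAG in antisense at -118 (as CTTTGT), with no overlap. Of 27025 genes with a promoter in the table, 28.3% hold TGGGAA on either strand and 21.0% hold ACAAAG. Among genes called higher the shares were 24.5% and 19.7%, among genes called lower 27.8% and 19.6%, and among tested genes 26.6% and 16.5%. A match in a window is a description and says nothing on binding.

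The microRNAs for which the series is named are transcribed from 1 cluster. The mature 3p forms found in RefSeq are printed with bases 2 to 8, the seed that pairs with targets, in capitals, because miR-302b and miR-302d share 1 seed and miR-302c, listed as starting 1 base later, has it shifted by 1 base, while miR-367 of the same cluster has another.
mmu-miR-302b-3p: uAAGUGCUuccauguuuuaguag
mmu-miR-302c-3p: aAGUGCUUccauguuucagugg
mmu-miR-302d-3p: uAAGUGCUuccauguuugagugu
mmu-miR-367-3p: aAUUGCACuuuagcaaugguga
The hairpins lie on the plus strand of chromosome 3 (mm10), Mir302b at 127545228 to 127545301, Mir302c at 127545363 to 127545430, Mir302a at 127545496 to 127545564, Mir302d at 127545624 to 127545689 and Mir367 at 127545733 to 127545807. These libraries are made from poly(A)-primed cDNA and do not measure mature microRNAs, so the reads are those of precursor or host transcripts. Mir302a to Mir302d together had 14 reads in E7.5 WT1 and 25 in WT2, and 1, 0 and 0 reads in the E8.5 libraries. Pooled, that is 2.59 reads per 1000000 (95% exact Poisson interval 1.84 to 3.53, counting error only) at E7.5 and 0.0355 (0.00090 to 0.198) at E8.5, and the intervals do not overlap. Mir367 had 0 and 3 reads at E7.5 and none at E8.5. The host gene Larp7, which lies on the opposite strand and whose reads these unstranded libraries cannot separate from the cluster's, had 119.9 and 256 CPM at E7.5 and 301, 254 and 189.6 CPM at E8.5 and was not called.

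Reported targets of the miR-302 family had a median log2 difference of -0.04 over 27 tested, close to the -0.02 of all genes, with 3 higher and 2 lower (1 to 4 and 2 to 4 with 1 library left out). Ccnd2, cyclin D2, had 38.2 and 17.9 CPM at E7.5 and 524, 719 and 237 CPM at E8.5 (log2 difference 4.08 ± 0.51, limma adjusted p = 0.00157). Ccnd1 had 36.0 and 36.1 CPM at E7.5 and 81.6, 83.0 and 71.8 CPM at E8.5 (log2 difference 1.12 ± 0.26, limma adjusted p = 0.0209). Sox9 was the other higher one, and Lefty1 and Lefty2 were lower. Cdkn1a, the p21 inhibitor, had 18.96 and 6.69 CPM at E7.5 and 8.05, 16.2 and 2.99 CPM at E8.5 (limma adjusted p = 0.578). Lats2, a Hippo kinase, had 13.8 and 7.001 CPM at E7.5 and 5.28, 8.77 and 19.4 CPM at E8.5 (limma adjusted p = 0.983). Both had overlapping groups. With a library left out the call was lost for Ccnd2 (without E7.5 WT2, adjusted p up to 0.0817) and Ccnd1 (without E7.5 WT1, E7.5 WT2, E8.5 WT1 or E8.5 WT2, adjusted p up to 0.117).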

How the data were processed

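The members of the comparison and its 41 gene lists were chosen with earlier results of these data known, and the lists share some genes. Total RNA was made into cDNA with the SMART-Seq v4 kit, which primes on poly(A) and keeps no strand, and into Nextera XT libraries, per the labels' protocols. FastQC 0.11.5, STAR 2.7.0f and mm10 are named in the submitters' processing notes. For the counter, the annotation and the normalising tool, a name is not given in the sources used here. Normalised counts were deposited by the authors as 1 table per stage (24421 genes each), a signal scaled within that table only. Dividing each column by its smallest positive value gave whole reads for 100% of values (tolerance 0.01), so the 5 libraries were scaled together with TMM factors (edgeR 4.0.16) and expressed as CPM (counts per 1000000 reads). They held 9184436 and 5902254 reads at E7.5 and 9008784, 9875391 and 9255494 at E8.5.

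Genes with a mean of at least 1 CPM over the 5 libraries were fitted with limma 3.58.1 (trend) on log2(CPM + 0.25) in R 4.3.3. Fold changes on this scale understate the change of low genes. The differences carry their SE, and p-values were adjusted by Benjamini-Hochberg over all 12964 genes. With 2 against 3 libraries an exact permutation test cannot go below p = 0.1, so none is given for single genes. A gene at 0 reads in a group was set at 3 reads over that group (0.199 per 1000000 reads at E7.5, 0.107 at E8.5), which gives the "at least" folds, on reads per 1000000 of the pooled totals. Named genes were the 15 most positive and 15 most negative called genes with a mean of at least 50 CPM in their higher group. Placeholder symbols, such as Gm or Rik names, were left out of that ranking. Added to these were the 6 members of each list with the smallest p and its member with the highest mean. Genes set in advance, such as Wnt1, Snai2, Otx2 and Xist, completed the 257 tested genes. Other members are named where the text accounts for the rest of a list.

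On simulated counts for 12876 genes, limma called 2 of 67 genes changed 2-fold in the right direction. It called 38 of 67 changed 4-fold and 65 of 66 changed 16-fold, with 5 false calls. Far fewer genes were changed there than were called in the data, which makes the adjusted threshold stricter, so these rates do not carry over. Alternatives were edgeR's quasi-likelihood test, DESeq2 1.42.0, limma voom, other scalings, pseudocounts, filters and thresholds, a length and GC correction and a replicate block. Each library was also left out. A further fit took all 11 libraries with deposited values at both stages, knockout ones included, and still compared WT with WT. E8.5 WT3 alone against E7.5 was added after seeing the data. Gene coordinates are those of GENCODE M21 (GRCm38, mm10), and sequences those of RefSeq. Of the symbols 23334 were current in the name table, 666 matched a synonym, 44 matched several genes and 377 none. The tables of E9.5 and the authors' lists of selected genes were not used here. Values of a few members counted in the lists are not reported here.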

Additional observations from a re-analysis of the deposited data

How the results depend on the processing

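Against 1110 higher and 1422 lower genes, the higher count was 553 with library totals only, 2041 on the deposited values and 2714 once the trend with length and GC was removed. A minimum of 10 CPM left 706 higher and 635 lower of 8408 genes, and the test against a log2 difference of 1 (limma treat) left 212 and 543. All 11 libraries in 1 fit, with the knockout ones adding to scaling and spread only, gave 1792 higher genes. An adjusted p below 0.01 gave 349 higher and 646 lower genes, and one below 0.1 gave 1773 higher. E8.5 WT3 alone against E7.5, an alternative chosen after seeing the data, gave 94 higher and 395 lower genes. With each library left out in turn the higher count ran from 256 to 1681 and the lower from 435 to 2236, and where 1 library of a group remained it was assumed to vary like the other group. The other all-gene counts (edgeR, DESeq2, limma voom, DESeq2 size factors, upper quartile, quantile normalisation, both pseudocounts and no filter) stayed within 1.5 times of the counts above. The cause of these shifts was not tested, except that fewer genes or fewer libraries entered where stated. No gene was called in the opposite direction in any of these settings. Among the 30 genes of the ranking given above, limma voom ended the calls of Prss29 and A2m. Of the named genes' values over all settings, 5459 kept their side of the threshold, 387 no longer passed and 233 newly passed. A gene called in neither fit may have changed direction among the 5459, as Ctnnb1 did with quantile normalisation. Values without an adjusted p were counted with their main call. Numbers 1 and 2 are shared by the groups. Deviations of same-numbered samples from their group means had correlations of -0.236 and 0.0922. The 2 E7.5 libraries deviate from their mean in exact opposition. Whether same-numbered samples share more than a number therefore cannot be told from this. With the replicate block 1803 genes were higher and 2464 lower. Depth limits the low genes. A level of 3 reads corresponds to 0.199 per 1000000 reads over the pooled E7.5 libraries and 0.107 over those of E8.5. In the simulated counts 2-fold changes were mostly missed, but far fewer genes changed there than were called here. That rate therefore does not carry over to these data.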

Other observations

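Outside the lineage and signalling lists, few cell cycle genes were called. The median log2 difference of 20 S phase genes was 0.53. Of 21 mitosis genes, topoisomerase Top2a and the kinesin Kif11 were lower. Among 17 cyclins and inhibitors Ccnd1, Ccnd2 and E2f1 were higher. Of 18 immediate early genes, 8 were lower and 2 higher, and with 1 library left out 1 to 8 were lower and 0 to 2 higher, 1 lower being without E7.5 WT1. Fos, a subunit of AP-1, had 12.9 and 9.02 CPM at E7.5 and 0.792, 1.07 and 0.412 CPM at E8.5. Ier2, another such gene, went the other way with 63.4 and 46.8 CPM at E7.5 and 204, 238 and 165 CPM at E8.5. In the p53 list 5 of 20 were lower and 2 higher (2 to 6 lower and 0 to 3 higher with 1 library left out). The higher share of the p53 list was near the 8.56% of all genes. The BH3-only gene Pmaip1 had 78.4 and 53.4 CPM at E7.5 and 3.96, 2.61 and 2.58 CPM at E8.5. Its fellow death effector Bax had 177 and 186 CPM at E7.5 and 452, 414 and 313 CPM at E8.5. The small heat shock protein gene Hspb1 had 69.0 and 54.1 CPM at E7.5 and 0.132, 1.66 and 0.206 CPM at E8.5, although only 2 of 22 genes of the heat shock and unfolded protein list were called. The calls of Ier2 and Hspb1 were lost without E7.5 WT2, and that of E2f1 without E7.5 WT2, E8.5 WT1 or E8.5 WT2. Those of Bax, Top2a and Kif11 were lost without E7.5 WT1, E7.5 WT2, E8.5 WT1 or E8.5 WT2. With each library left out in turn, the log2 difference ran from 0.991 to 1.256 for Bax and from -1.233 to -0.878 for Top2a. It ran from -1.95 to -1.362 for Kif11, 0.921 to 1.66 for E2f1, 1.628 to 2.091 for Ier2 and -7.234 to -6.061 for Hspb1. The losses cannot be told apart from the smaller groups.

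Imprinted genes went both ways, with 5 of 26 higher and 4 lower (3 to 6 higher and 0 to 5 lower with 1 library left out, 0 being without E7.5 WT2). Paternally expressed Mest, Ndn, Nnat and Dlk1 were higher. Ndn, which encodes necdin, had 19.7 and 13.2 CPM at E7.5 and 180.4, 178 and 145 CPM at E8.5. Nnat, which encodes neuronatin, had 25.9 and 45.3 CPM at E7.5 and 322, 443 and 224 CPM at E8.5. Maternally expressed H19, Phlda2 and Ascl2 were lower. H19 had 154 and 142 CPM at E7.5 and 47.4, 34.1 and 11.7 CPM at E8.5. Phlda2 had 173 and 123 CPM at E7.5 and 20.3, 18.4 and 8.24 CPM at E8.5. The other called genes were Gnas, with transcripts from both parental alleles, which was higher, and the maternally expressed noncoding RNA Rian, which was lower. The call was lost with a library left out for H19 (without E7.5 WT1 or E7.5 WT2, adjusted p up to 0.18), Phlda2 (without E7.5 WT1 or E7.5 WT2, adjusted p up to 0.0646), Ascl2 (without E7.5 WT1 or E7.5 WT2, adjusted p up to 0.0674), Dlk1 (without E7.5 WT1, E7.5 WT2, E8.5 WT1 or E8.5 WT2, adjusted p up to 0.145), Rian (without E7.5 WT2, adjusted p up to 0.0814) and Gnas (without E7.5 WT1, E7.5 WT2, E8.5 WT1 or E8.5 WT2, adjusted p up to 0.216).

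The 37 cytoplasmic ribosomal protein genes were all positive in their log2 difference (median 0.97), but only Rplp2 was called. Without E8.5 WT3, 19 were called. The Rplp2 call was lost without E7.5 WT1, E7.5 WT2 or E8.5 WT2, with log2 differences of 1.546, 2.287 and 1.808. The loss cannot be told apart from the smaller groups. All 37 were lower in WT3 than in the other E8.5 libraries (median -0.86 on the log2 scale), and their sum was 22325 and 40678 CPM at E7.5 and 68330, 64016 and 36435 CPM at E8.5.

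Transcript length moved with the comparison. With genes in 4 equal bins from the shortest to the longest transcripts, the median log2 difference was 0.37, 0.03, -0.18 and -0.31, with 421 higher against 415 lower genes in the shortest bin and 188 against 303 in the longest. Its part in the calls was not tested beyond the fit with that trend removed.

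Sex-linked genes differed between libraries of the same group. Ddx3y, on the Y chromosome, had 44.6 and 0.622 CPM at E7.5 and 16.8, 0 and 0 CPM at E8.5. Xist, of the inactive X, had 52.4 and 131 CPM at E7.5 and 0.264, 21.3 and 17.2 CPM at E8.5. Neither was called.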
